A study of Mus musculus with 12 samples.

Results

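The mitochondrial genome encodes 13 mRNAs and 22 tRNAs besides its ribosomal RNAs, and the chimeric reads of adult mouse forebrain that joined a small RNA to one of these transcripts are described here. The members are all peaks whose deposited gene symbol starts with mt- and is neither of the mitochondrial ribosomal RNA genes, mt-Rnr1 and mt-Rnr2. There were 1364 such peaks among 250567 in all lists, and all 1364 lay on the strand of their gene. All 13 mRNAs and 12 of the 22 tRNAs had at least 1 peak.

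The study cross-linked C57BL/6 forebrain homogenate with 3 rounds of ultraviolet light, precipitated Argonaute 2 (Ago2), and ligated each small RNA to the RNA lying beside it in the protein, so that a chimeric read names both. Excitatory neurons were sampled with anti-myc, which binds a tagged Ago2 (3 libraries). The conditional line came from a cross of B6Tg(Camk2a-Cre/ERT2) with a line on the B6.Cg background that carries Gt(ROSA)26Sortm1(CAG-GFP/Eif2c2); Eif2c2 is an older symbol of the Ago2 gene. Camk2a, the promoter that drives the inducible Cre, is active in excitatory neurons of the adult forebrain. Mice were given 2 mg tamoxifen on 5 consecutive days and, after an induction of 14 to 21 days, their forebrains were taken at 10 to 12 weeks of age. Whole forebrain was sampled with anti-Ago2 in 2 sets, replicates 5 to 7 (reps 5-7, 3 libraries) and replicates 1 to 4 (reps 1-4, 4 libraries). An IgG control had 2 libraries. Every sample carries the same genotype and tamoxifen text, and the sources used here do not say whether the anti-Ago2 and IgG mice also carried the tag. The excitatory and reps 5-7 libraries share 3 library numbers in the calling summaries, so these lists may come from the same tissue.

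Peaks were called by the authors over the pooled libraries of each set. Every list is therefore 1 observation with no spread between replicates, and the tests below compare lists, not conditions. The 95% intervals are Wilson intervals and cover counting error only. The lists differ greatly in size: 766 peaks in the excitatory list, 3611 in reps 5-7, 246180 in reps 1-4 and 10 in IgG. The stated depth was 61 to 138 M reads per sample. Each peak comes with a score of the authors in whole numbers, whose definition is not stated; its lowest value equals the minimum of 3 reads used for calling. Of the marker lists, the 6 excitatory neuron genes held 14 of the excitatory list's peaks (all on Camk2a). The 6 genes each of inhibitory neurons, astrocytes, microglia and vascular cells held 0 there.

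The 13 mitochondrial mRNAs code for core membrane subunits of complexes I, III, IV and V of the respiratory chain, and the tRNAs serve the organelle's own ribosomes. Both strands are transcribed as long precursors, and the tRNAs that lie between the coding sequences are cut out to free the mRNAs. Ago2 loaded with a miRNA is best known for pairing its seed, bases 2 to 8 of the miRNA, with sites in cytoplasmic mRNAs. Mitochondrial transcripts are made and kept inside the organelle, and a homogenate brings the contents of all compartments together. Where in the cell the pairs formed was not tested.

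The miRNAs described below include groups of shared seed and single miRNAs, and the mature sequences of some of them are given. Sequences are from RefSeq (GRCm38.p6), 5′ to 3′, with the seed in capitals. Of 157 small RNAs with a peak on a member, 130 had an entry in that table. miR-124-3p, which is among the highest member scores, had none. In reps 1-4 the first group, with the seed of miR-30, had its highest member peak on mt-Th.
miR-30a-5p: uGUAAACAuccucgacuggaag
miR-30c-5p: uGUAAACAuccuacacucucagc
miR-30e-5p: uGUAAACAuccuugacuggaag
miR-384-5p: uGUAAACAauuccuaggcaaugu
The seeds of miR-27 and miR-128 are offset by 1 base, and both had their highest member peak of that list on mt-Th as well.
miR-27a-3p: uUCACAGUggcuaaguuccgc
miR-27b-3p: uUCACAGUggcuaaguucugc
miR-128-3p: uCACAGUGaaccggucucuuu
The miR-29 group had its highest member peak of reps 1-4 on mt-Tl2, and miR-21a-5p its only one on mt-Tm. Most member peaks of the 3 groups lay elsewhere in that list. mt-Th held 7 of 56 for miR-30 with miR-384-5p and 3 of 26 for miR-27 with miR-128. mt-Tl2 held 4 of 61 for miR-29.
miR-29a-3p: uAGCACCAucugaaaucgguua
miR-29b-3p: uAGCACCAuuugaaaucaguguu
miR-29c-3p: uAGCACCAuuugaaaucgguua
miR-21a-5p: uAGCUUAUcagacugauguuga
On the mRNAs of reps 1-4 the highest scores belong to miR-138-5p and miR-127-3p, and the let-7 group has the most peaks.
miR-138-5p: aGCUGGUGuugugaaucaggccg
miR-127-3p: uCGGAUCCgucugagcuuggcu
let-7a-5p: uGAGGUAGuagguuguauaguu
let-7c-5p: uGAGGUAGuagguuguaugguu
let-7e-5p: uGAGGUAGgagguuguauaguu

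Peaks on tRNAs were few but held some of the highest scores. The excitatory list had 2 tRNA peaks on 1 tRNA, reps 5-7 had 9 on 7 tRNAs, and reps 1-4 had 100 on 12 tRNAs. IgG had 0 of 10 peaks on a tRNA or an mRNA of the mitochondrion, which allows a share of up to 30%. Of these 10 IgG peaks, 7 did lie on chromosome M, and 9 of the 10 were ribosomal RNA peaks. The remaining 10 tRNAs had no peak in any list; RefSeq names them TrnI, TrnN, TrnC, TrnY, TrnS1, TrnD, TrnG, TrnR, TrnE and TrnT, the carriers of isoleucine, asparagine, cysteine, tyrosine, serine, aspartate, glycine, arginine, glutamate and threonine. In reps 1-4 the most peaks were on mt-Tp (19, proline), mt-Tl1 (18, leucine), mt-Th (16, histidine), mt-Tm (16, methionine) and mt-Tv (11, valine). The peaks on these 5 tRNAs thus numbered 11 to 19, whereas their summed scores ranged from 146 on mt-Tp to 2595 on mt-Th.

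On mt-Th, the histidine tRNA (chromosome M, 11546 to 11612 of mm10, plus strand), the peaks of reps 5-7 and the high peaks of reps 1-4 belonged to 2 groups, miR-30 and miR-27 with miR-128. The excitatory list had no peak there, and it held 7 peaks of the miR-30 group in all, against 121 in reps 5-7 and 7092 in reps 1-4. In reps 5-7, mt-Th had 3 peaks: miR-30b-5p scored 5, miR-30c-5p 6 and miR-27a-3p 8, each overlapping its reps 1-4 counterpart. In reps 1-4, 7 peaks of 6 miR-30 group members held 87.7% of the tRNA's summed score. miR-30c-5p had 2 of these peaks, scoring 763 at bases 11 to 18 of the tRNA and 704 at bases 30 to 40, counted from its 5′ end. They were the highest and second highest of the 3135 peaks of miR-30c-5p in the list. miR-30b-5p scored 471, miR-30e-5p 125, miR-30d-5p 102 and miR-30a-5p 96, all ending at base 18, and miR-384-5p scored 14. miR-128-3p (score 111), miR-27a-3p (105) and miR-27b-3p (76) spanned bases 22 to 36, past the first place and overlapping the second, and held 11.3% of the score. The 6 other mt-Th peaks scored from 3 to 8.

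On mt-Tl2, a leucine tRNA (chromosome M, 11671 to 11741, plus strand), all 3 Ago2 lists placed the miR-29 group on the same stretch. This was the one tRNA with excitatory peaks, miR-29a-3p with a score of 5 at bases 38 to 58 and miR-29b-3p with 5 at bases 40 to 58. In reps 5-7 miR-29a-3p scored 4 at bases 42 to 57. In reps 1-4 the 3 members stacked at bases 40 to 57: miR-29a-3p scored 67, miR-29b-3p 28 and miR-29c-3p 21, with a further miR-29b-3p peak of 5 at another place. Together they had 66.1% of the tRNA's summed score in reps 1-4. Seen from the miRNA, the place is minor: these peaks made 2.23%, 0.171% and 0.0751% of the summed miR-29 score of the excitatory, reps 5-7 and reps 1-4 lists. mt-Tl2 made 0.261% of excitatory peaks and 0.00325% of reps 1-4 peaks, a difference that did not pass the test across genes (Fisher's exact test, adjusted p = 0.116).

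On mt-Tm, the methionine tRNA (chromosome M, 3845 to 3913, plus strand), a single miR-21a-5p peak stood out in both forebrain lists, and the excitatory list had no peak. In reps 5-7 miR-21a-5p had 2 peaks in all, and the one on mt-Tm scored 21 of their 25. In reps 1-4 it scored 680 at bases 18 to 21 and made 89.9% of the tRNA's score. The 15 other peaks there scored 10 or less. The miR-21a-5p peak was the highest of the 73 of that miRNA in reps 1-4 and held 62.0% of their summed score. miR-21a is known as a miRNA of many tissues, with low levels in neurons. With 2 peaks of miR-21a-5p among the 3611 of reps 5-7, its absence from mt-Tm among 766 excitatory peaks says little. Whether cell type plays a part was not tested.

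Other tRNAs showed mixtures rather than 1 group. On mt-Tl1, the leucine tRNA just upstream of mt-Nd1, 17 small RNAs shared 18 peaks, the highest being miR-328-3p with 43 and miR-124-3p with 28. On mt-Tp, 19 peaks of 19 small RNAs lay almost on top of each other with scores of 17 or less, and reps 5-7 had none there. On mt-Tv, miR-9-5p scored 46, and the highest peak, miR-124-3p with 172, covers only the last base of the tRNA; its other 18 bases reach past the end, where mt-Rnr2 begins. miR-124-3p on mt-Tw, the tryptophan tRNA, scored 9 in reps 5-7 and 66 in reps 1-4, and on mt-Ta, the alanine tRNA, 3 and 49. mt-Tl1 and mt-Tv had 1 peak each in reps 5-7, miR-124-3p with a score of 4 and miR-9-5p with 3. mt-Tq, mt-Tf, mt-Tk and mt-Ts2 had 1 to 4 peaks each in reps 1-4 and none in the other lists.

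**Figure D1:**
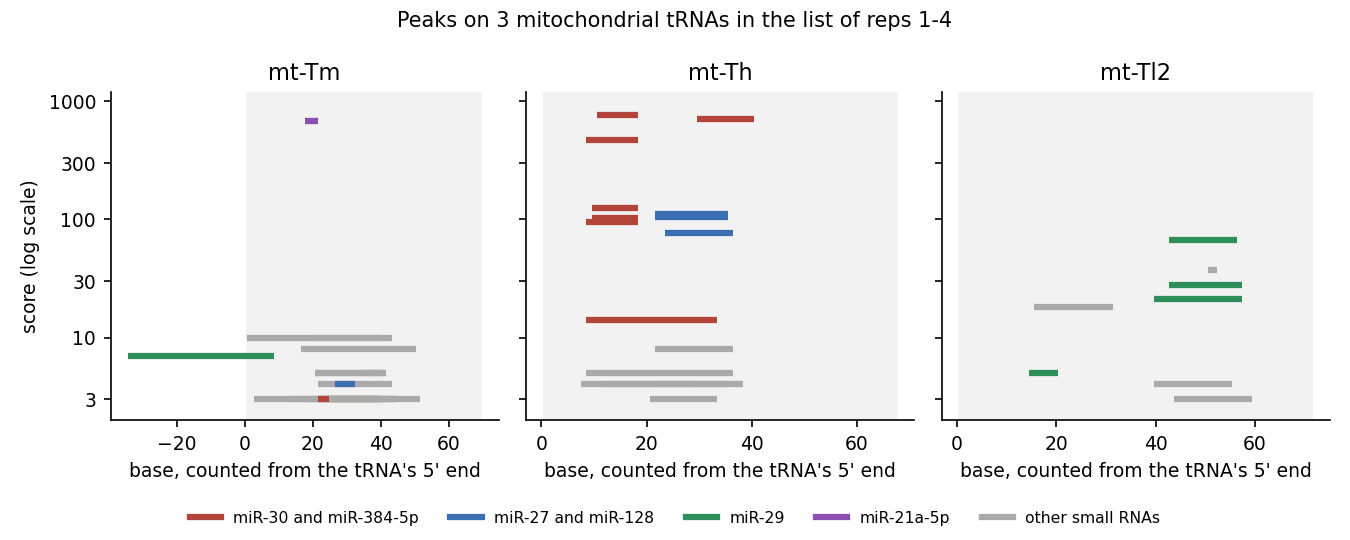
Peaks of reps 1-4 on mt-Tm, mt-Th and mt-Tl2. Each bar is 1 peak, placed by the bases of the tRNA it covers (horizontal axis, counted from the 5′ end, with the tRNA shaded) and by its score (vertical axis, log scale), and coloured by miRNA group; miR-30f, whose seed differs from the miR-30 group's, is among the other small RNAs. On mt-Th the miR-30 peaks of 471 and 763 share a place and a second miR-30c-5p peak of 704 lies further 3′, where the miR-27 and miR-128 peaks overlap its start.

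The mRNAs held 5 peaks (0.653% of the list, interval 0.279 to 1.52%) in excitatory neurons, 69 (1.91%, 1.51 to 2.41%) in reps 5-7 and 1179 (0.479%, 0.452 to 0.507%) in reps 1-4. For the tRNAs the shares were 0.261% (0.0716 to 0.947%), 0.249% (0.131 to 0.473%) and 0.0406% (0.0334 to 0.0494%). Intervals of the excitatory list were wide. They met those of reps 5-7 for both kinds, but for the mRNAs only at the edge (1.519 against 1.513%). Among all peaks in coding sequence the excitatory and reps 5-7 intervals did not meet. There the mitochondrial mRNAs made 1.42% (0.610 to 3.29%) in excitatory neurons, 6.12% (4.86 to 7.67%) in reps 5-7 and 2.12% in reps 1-4. Their scores were higher than usual: the median was 8, 5 and 7 in the 3 lists, against 4 over all peaks of each list. The shares depend on how far down each list reaches. Among the 766 highest-scoring peaks of each list the mRNA share was 0.653% in excitatory neurons, 1.83% in reps 5-7 and 1.57% in reps 1-4, so the gap between the forebrain lists was far smaller there and the excitatory share, above that of reps 1-4 over all peaks, was below it. The same turn came with summed scores for the mRNAs (0.533% in excitatory neurons and 0.896% in reps 1-4), and for the tRNAs both among the 766 highest-scoring peaks (0.261% and 0.653%) and with summed scores (0.130% and 0.196%). No order of the excitatory and reps 1-4 shares is therefore given. In such bulk tissue, fewer cells of a type and less RNA per cell cannot be told apart.

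**Figure D2:**
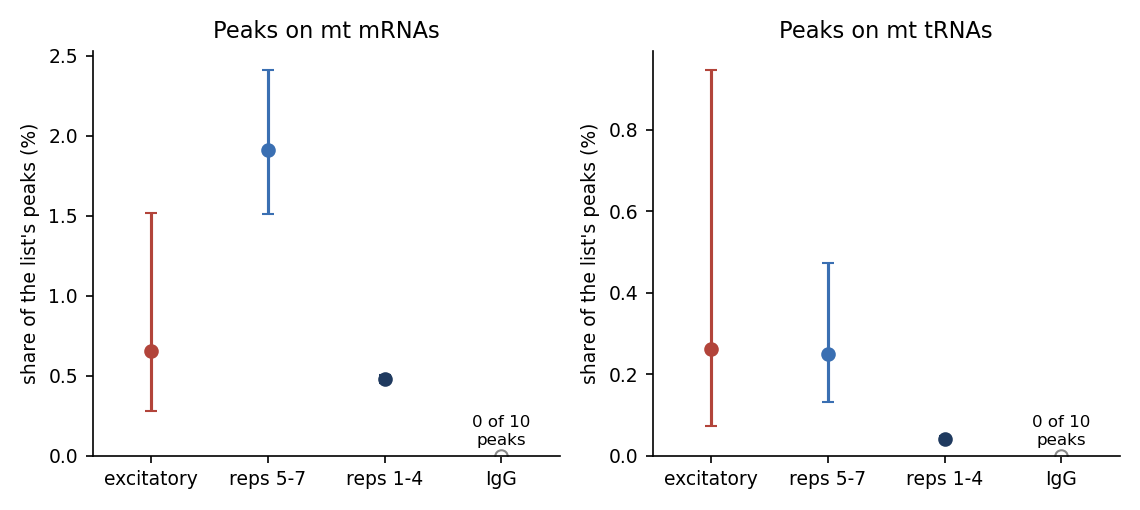
Share of each list's peaks (vertical axis, %) that lay on the 13 mitochondrial mRNAs (left) or on mitochondrial tRNAs (right), with Wilson 95% intervals as bars. For the mRNAs the share was 1.91% in reps 5-7 and 0.479% in reps 1-4, with excitatory neurons at 0.653%; IgG had 0 of 10 peaks.

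Complex I, which takes electrons from NADH, has 7 mitochondrially encoded subunits, and they held most of the mRNA peaks: 5 of 5 in excitatory neurons, 50 of 69 in reps 5-7 and 797 of 1179 in reps 1-4. These genes also have the most bases, 6361 against 1144, 3013 and 885 for complexes III, IV and V. Per kilobase, complex I had 7.86 peaks in reps 5-7 and 125 in reps 1-4, against 7.87 and 166 for complex III. The values were 2.66 and 59.4 for complex IV and 2.26 and 14.7 for complex V. In reps 5-7 mt-Nd2 was first with 15.4 peaks per kilobase of gene and mt-Nd1 second with 11.5; mt-Nd3 and mt-Nd6 had none. In reps 1-4 mt-Nd1 had 200 peaks per kilobase, mt-Nd2 191, mt-Nd5 128 and mt-Nd4 102, whereas mt-Nd6 had 34.7, mt-Nd4l 33.7 and mt-Nd3 14.4. Peaks covered 94.1% of the bases of mt-Nd1, 91.7% of mt-Nd2 and 80.6% of mt-Nd5 in reps 1-4. mt-Nd6 is the 1 mRNA encoded on the minus strand, and its 18 peaks scored 16 or less. In the same interval the plus strand, which carries no annotated gene there, had 10 peaks in reps 5-7, against 0 on mt-Nd6 itself, and 58 in reps 1-4 with a top score of 128 (miR-9-5p).

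Single complex I peaks reached the highest mRNA scores. On mt-Nd5, miR-138-5p scored 13 in excitatory neurons (chromosome M, 13153 to 13172), 25 in reps 5-7 (13154 to 13173) and 796 in reps 1-4 (13167 to 13172). It was the highest mRNA peak of reps 5-7 and of reps 1-4, shared the top score of the excitatory mRNA peaks, and was the highest of the 3485 miR-138-5p peaks of reps 1-4. miR-138-5p also lay on mt-Nd2 in all 3 lists, with scores of 4, 8 and 130. On mt-Nd1, miR-127-3p, which is made from an imprinted miRNA cluster, scored 8 in excitatory neurons, 12 in reps 5-7 and 455 in reps 1-4, where a second peak beside it scored 370. These peaks lie within 36 bases of each other (3538 to 3573), but the 1-base reps 5-7 peak at 3557 did not overlap the reps 1-4 peaks. On mt-Nd4, let-7c-5p scored 3, 14 and 160 at 1 place in the 3 lists (11442 in reps 1-4). On mt-Nd4l, miR-124-3p, a miRNA of neurons, scored 13, 19 and 353 within a stretch of 17 bases (9898 to 9914). The reps 5-7 peak (9900 to 9904) did not overlap the 1-base reps 1-4 peak (9911), whereas the excitatory peak overlapped both. The 3 mt-Nd4l scores are uncertain, because an annotated copy of that gene exists on chromosome 1, as given further on. mt-Nd4l held 9 other peaks in reps 1-4, with scores of 9 or less. On mt-Nd3, miR-128-3p scored 73 in reps 1-4 (9461 to 9479), and the 4 other peaks scored 7 or less.

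Complex III, which passes electrons to cytochrome c, has 1 mitochondrially encoded subunit, mt-Cytb. It had 0 peaks in excitatory neurons, which allows up to 0.392% of that list, 9 in reps 5-7 (7.87 per kilobase) and 190 in reps 1-4 (166 per kilobase). In reps 5-7 the leading peaks were miR-124-3p with 15 and miR-125b-5p with 13. Both overlapped leading peaks of the same miRNAs in reps 1-4, where miR-124-3p scored 213 and 182 at neighbouring places and miR-125b-5p 200.

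Complex IV, the cytochrome c oxidase, had 0 peaks on its 3 subunits in excitatory neurons, 8 in reps 5-7 and 179 in reps 1-4. mt-Co1 held 7 of the 8 in reps 5-7 and 162 of the 179 in reps 1-4 (105 per kilobase). mt-Co2 had 1 and 9 (13.2 per kilobase in reps 1-4), and mt-Co3 had 0 and 8 (10.2 per kilobase). Within mt-Co1 the peaks of reps 1-4 were densest before the middle: 27 lay at bases 1 to 250, 23 at 251 to 500, 62 at 501 to 750, 32 at 751 to 1000, 13 at 1001 to 1250 and 4 at 1251 to 1500. The top peak of mt-Co1 in reps 1-4 was miR-138-5p with 88, and that of mt-Co3 miR-127-5p with 10. On mt-Co2, miR-218-5p scored 4 in reps 5-7 (7162 to 7168) and 52 in reps 1-4 (7165 to 7179). Complex V, the ATP synthase, had 0 peaks in excitatory neurons. mt-Atp6 had 2 in reps 5-7 and 10 in reps 1-4, and mt-Atp8 had 0 and 3. On mt-Atp6 the top peak of reps 1-4 was miR-3099-3p with 63, followed by miR-124-3p with 56 at an overlapping place.

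**Figure D3:**
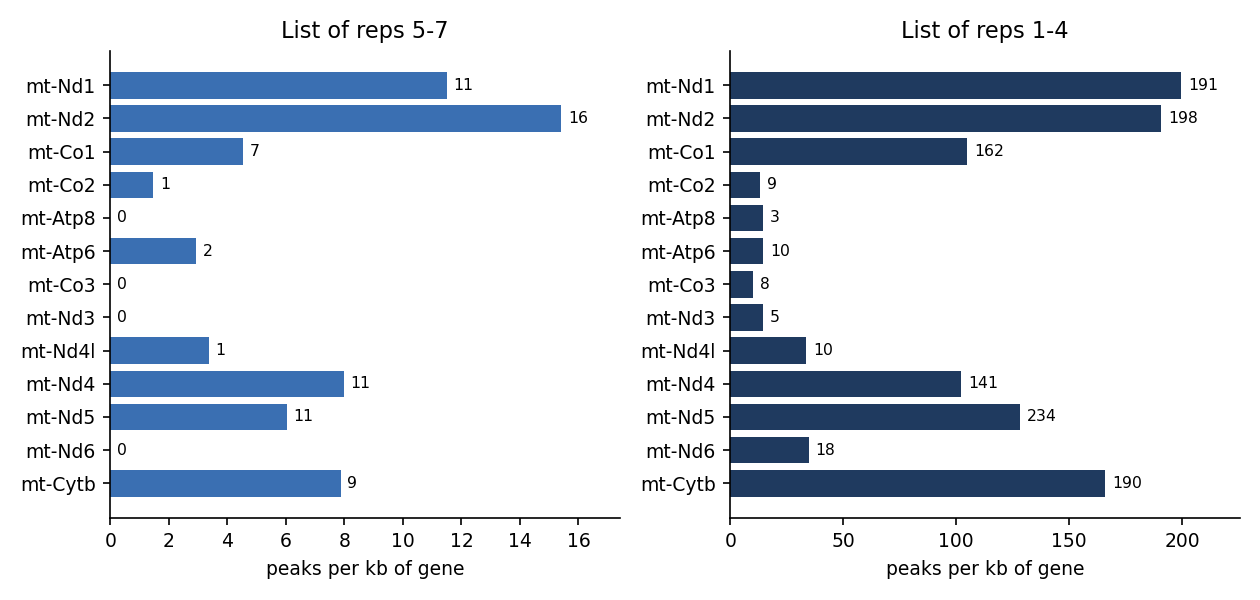
Peaks per kilobase of gene (horizontal axis, linear, with a different scale in each panel) for the 13 mRNAs in their order along the chromosome, in reps 5-7 (left) and reps 1-4 (right); the number of peaks stands at each bar. In both lists mt-Nd1 and mt-Nd2 had the most per kilobase, and the genes from mt-Co2 to mt-Nd4l had few.

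The mRNAs from mt-Co2 to mt-Nd4l thus formed a stretch with few peaks in both forebrain lists. Chromosome 1 of mm10 carries 5 annotated genes on its minus strand, Gm10925, Gm28437, Gm28438, Gm10222 and Gm28439 (24611535 to 24614651), whose lengths and spacing mirror mt-Atp6, mt-Co3, mt-Nd3, mt-Nd4l and the start of mt-Nd4. Their lengths were 678, 783, 345, 294 and 876 bases, against 681, 784, 348, 297 and 1378 for the mitochondrial genes, and RefSeq gives mt-Atp6 as a synonym of Gm10925. Mouse nuclear chromosomes are known to hold copies of mitochondrial DNA. A read from such a pair could be placed on either copy or dropped for matching both, so the levels of these mRNAs are uncertain. The effect was not tested, no sequences were compared, and the pairing was chosen after the values were seen. Inside the mirrored interval (chromosome M, 7927 to 11043) reps 5-7 had 1.01 peaks per kilobase of plus-strand mRNA, against 8.4 outside it, and reps 1-4 had 25.5 against 138. The minus-strand mt-Nd6, outside the interval with 0 peaks in reps 5-7 and 18 in reps 1-4, was left out. Peaks were placed by their midpoints. The edge runs through mt-Nd4: its first 877 bases had 0 peaks in reps 5-7 and 43 in reps 1-4 (49.0 per kilobase), and its last 501 bases had 11 and 98 (196 per kilobase). mt-Co2 and the end of mt-Co1 lie outside the interval and also had few peaks.

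On chromosome 1, in and just beyond the 5 genes, the lists held 1 peak in excitatory neurons, 2 in reps 5-7 and 27 in reps 1-4, with summed scores of 6, 13 and 237. Of the 27, 19 mirrored a mitochondrial peak of the same small RNA. On Gm10222, miR-124-3p scored 4 in reps 5-7 (24612661 to 24612679) and 51 in reps 1-4 (24612675 to 24612677), at the mirror of the mt-Nd4l stretch of 9898 to 9914. On Gm28438, miR-128-3p scored 9 in reps 5-7 at the mirror of its mt-Nd3 peak of reps 1-4. On Gm10925, miR-3099-3p scored 6 in excitatory neurons and 28 in reps 1-4, where mt-Atp6 had 63. The chromosome 1 scores together were thus below those inside the mitochondrial interval, which summed to 13, 29 and 1238 in the 3 lists.

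**Figure D4:**
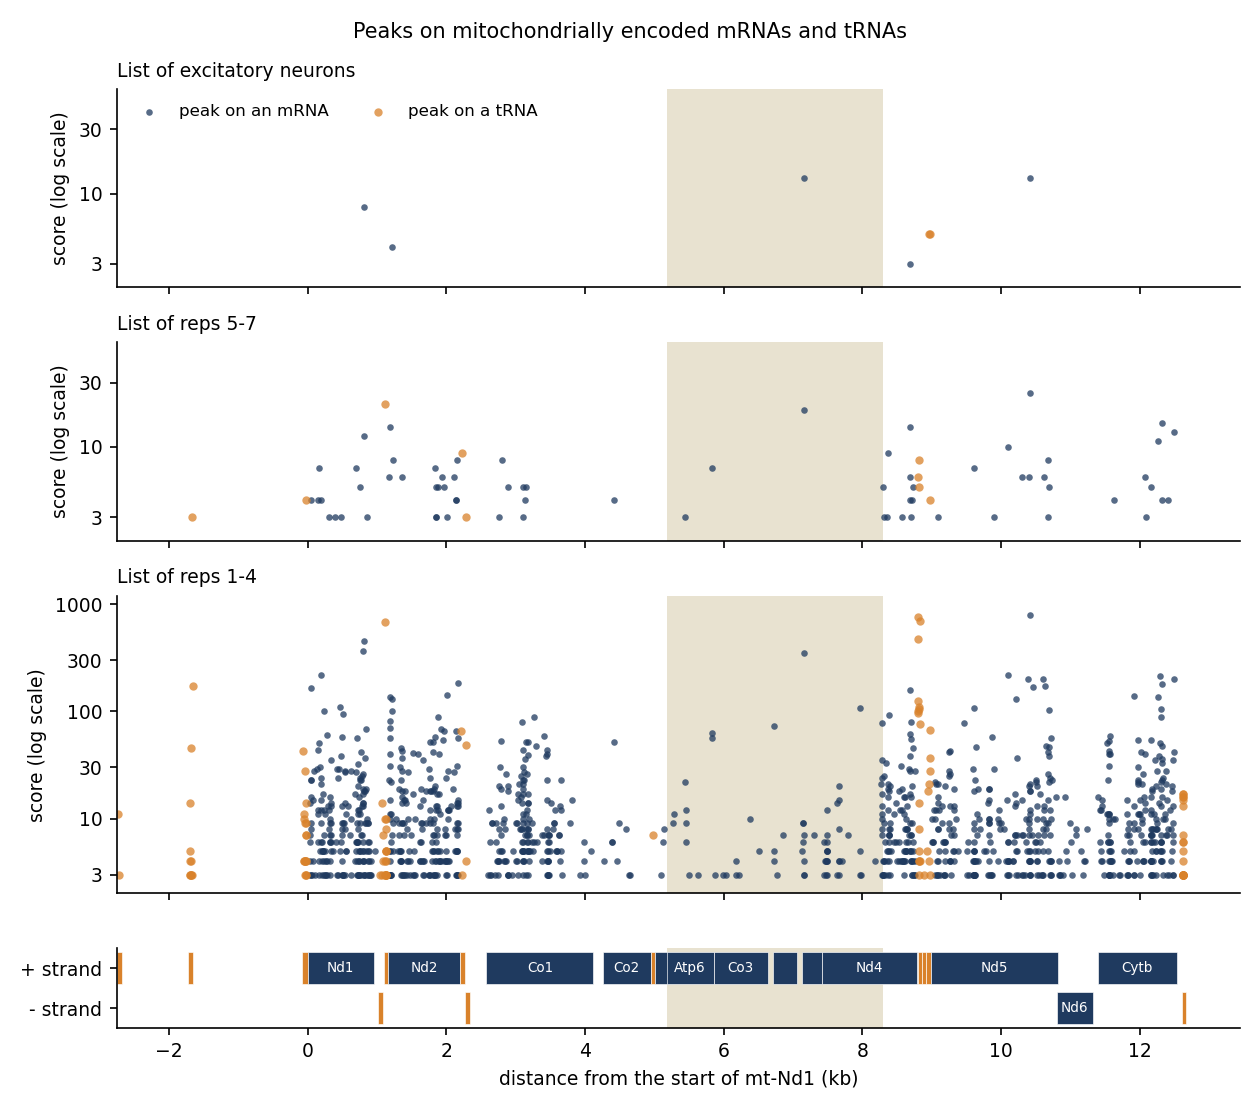
Member peaks of the excitatory, reps 5-7 and reps 1-4 lists by distance from the start of mt-Nd1 (horizontal axis, kb) and score (vertical axis, log scale, with a wider range for reps 1-4); the lowest panel shows the genes of each strand. The shaded interval is the one mirrored by the chromosome 1 genes: in reps 1-4 it had 25.5 peaks per kilobase of plus-strand mRNA, against 138 outside it, without mt-Nd6.

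Fisher's exact test set the peak number of each gene in 1 list against that in another, for every gene with at least 10 peaks in both lists together, adjusted by the Benjamini-Hochberg method with a threshold of 0.05. Between reps 5-7 and reps 1-4, 55 of 4132 genes were called (1.33%), and 3 of the 15 members tested were among them, all higher in reps 5-7. mt-Nd2 made 0.443% of the peaks of reps 5-7 and 0.0804% of those of reps 1-4 (odds ratio 5.53, adjusted p = 4.7e-05 by Fisher's exact test). mt-Nd4 made 0.305% and 0.0573% (odds ratio 5.33, adjusted p = 0.00287), and mt-Nd1 0.305% and 0.0776% (odds ratio 3.94, adjusted p = 0.0216). The other members tested did not pass, with mt-Nd5 nearest (0.305% and 0.0951%, adjusted p = 0.0666 by Fisher's exact test). The other 10 mitochondrial genes with a peak had fewer than 10 in both lists together and were not tested. Among peaks at or above the median score mt-Nd2 alone was called. With overlapping peaks counted once, all 6 members tested were called, but this merged count cannot serve as a check. Merging took the mRNA peaks of reps 1-4 from 1179 to 92 places, and those of reps 5-7 only from 69 to 48. Among the 766 highest-scoring peaks of each list 0 members had enough peaks for the test.

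Between excitatory neurons and reps 5-7, 7 of 32 genes were called (21.9%), and 0 of the 4 members tested. mt-Nd1, mt-Nd4 and mt-Nd5 each had 1 excitatory peak (0.131%) and 11 in reps 5-7 (0.305%), and mt-Nd2 had 1 (0.131%) and 16 (0.443%). None of the 4 had an unadjusted Fisher's exact p under 0.05, against 10 of the 32 genes. The 7 calls became 0 without ribosomal RNA peaks. Between excitatory neurons and reps 1-4, 11 of 4103 genes were called (0.268%), and 0 of 15 members. At an unadjusted p under 0.05 there were 2, mt-Tl2 and mt-Nd4l, both with the higher share in excitatory neurons, among 123 of the 4103 genes. With 7 excitatory peaks on all members, a difference in a single gene was hardly detectable at this depth.

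Of the 5 excitatory mRNA peaks, 4 shared at least 1 base with a peak of their own small RNA in reps 5-7 (80.0%, interval 37.6 to 96.4%), and all 5 did in reps 1-4. Over all excitatory peaks the shares were 55.5% and 93.1%. Of the 69 mRNA peaks of reps 5-7, 49 met their own small RNA again in reps 1-4 (71.0%, 59.4 to 80.4%), against 87.5% (86.4 to 88.5%) over all its peaks and 93.4% in coding sequence outside chromosome M. The 9 tRNA peaks all did. All 69 mRNA peaks met a reps 1-4 peak of some small RNA. This says little about shared sites, because reps 1-4 peaks covered much of these genes. They covered 50.4% of the bases of mt-Nd4 and 68.8 to 94.1% of those of mt-Co1, mt-Cytb, mt-Nd5, mt-Nd2 and mt-Nd1. With 50% reciprocal overlap 10 of 69 (14.5%) were shared with the same small RNA, against 45.3% over all peaks.

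In reps 1-4 the mRNA peaks stacked deeply. The 1179 peaks formed 92 separate places, 12.8 peaks per place, whereas coding sequence outside chromosome M had 1.55 per place; in reps 5-7 the values were 1.44 and 1.09. The 5 positions covered by the most small RNAs were in mt-Nd2 (3937, 20 small RNAs), mt-Nd5 (12358, 20), mt-Cytb (14300 and 14918, 20 each) and mt-Co1 (5856, 19). These small RNAs did not share a seed: they had 12 to 18 different seeds or unmatched names per position, with 3 to 8 let-7 members among them. At the mt-Nd2 position miR-124-3p scored 137, let-7c-5p 82 and let-7a-5p 70. At the mt-Nd5 position miR-219a-5p scored 108 and the next, miR-124-3p, 29. miR-9-5p led at the first mt-Cytb position with 53, miR-138-5p at the other with 54, and miR-135a-5p at mt-Co1 with 44.

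The small RNAs joined to mitochondrial mRNAs differed in share from those joined to coding sequence outside chromosome M. The let-7 group, with miR-98-5p, made 27.5% (18.4 to 39.0%) of mRNA peaks in reps 5-7, against 12.5% (10.6 to 14.6%) of the nuclear coding peaks. In reps 1-4 it made 26.2% (23.8 to 28.8%) against 16.8% (16.5 to 17.1%). In the 6 mRNAs with over 100 peaks in reps 1-4, the let-7 share was between 13% (mt-Co1) and 32.9% (mt-Nd5), and it was 0 of 18 on mt-Nd6. miR-124-3p made 31.9% in reps 5-7, against 32.6%, and 9.67% in reps 1-4, against 19.9%. By summed score the last gap was smaller, 23.5% against 26.2%, while the let-7 share was 23.2% against 14.8%. miR-138-5p took 8.17% of the mRNA score in reps 1-4 against 2.12% of the nuclear coding score, but by number of peaks 3.31% against 2.60%, which did not pass the test (adjusted p = 0.327 by Fisher's exact test). miR-127-3p took 5.98% of the score against 1.82%, and by number of peaks its share went the other way, 1.61% against 2.13% (adjusted p = 0.513 by Fisher's exact test). The peaks of 796 for miR-138-5p and of 455 and 370 for miR-127-3p carry much of these scores.

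Small RNA by small RNA, Fisher's exact test called 38 of 150 small RNAs in reps 1-4 (25.3%), 30 with the higher share on the mitochondrial mRNAs and 8 with the lower share. Of the 9 members of the let-7 group, miR-98-5p included, 6 were called, all higher. let-7c-5p, the let-7 member with the most peaks, was not among them (odds ratio 1.09). The largest odds ratios were those of miR-142a-3p (14 mitochondrial and 14 nuclear coding peaks, odds ratio 46.8, adjusted p = 7.7e-15 by Fisher's exact test), miR-126a-5p (7 and 12, 27.1), miR-3099-3p (12 and 21, 26.7), miR-135b-5p (7 and 13, 25), miR-190a-5p (5 and 10, 23.2), miR-384-3p (5 and 13, 17.8), miR-879-5p (3 and 8, 17.4), miR-541-5p (17 and 51, 15.6), miR-3068-5p (3 and 9, 15.4) and miR-1843b-5p (3 and 12, 11.6). These rest on few peaks, and their mitochondrial scores reached at most 63. miR-142a is known from blood cells and miR-126a from endothelium, whereas the microglia markers had 21 peaks and the vascular markers 79 in this list. The other arm of miR-126a, miR-126a-3p, was not called, with 9 mitochondrial and 467 nuclear coding peaks (0.763% against 0.857%, odds ratio 0.890). The part of such cells in these values was not tested. Lower shares on the mitochondrial mRNAs were those of miR-16-5p (0.170% against 1.00%), miR-128-3p (1.61% against 5.45%), miR-22-3p (0.339% against 1.11%), the miR-29 members a (2.04% against 4.32%), b (1.44% against 3.57%) and c (0.679% against 1.63%), miR-124-3p (odds ratio 0.431, adjusted p = 5.4e-19 by Fisher's exact test) and miR-9-5p (5.94% against 11.1%). In reps 5-7, 1 of 15 small RNAs was called (6.67%), let-7c-5p with 14.5% against 4.82% (adjusted p = 0.0416 by Fisher's exact test). The 3 miR-29 members had 0 of 69 mitochondrial peaks there, against 13.1% of nuclear coding peaks (adjusted p = 0.00184 by Fisher's exact test over shared seeds). The test treats stacked peaks as independent. With overlapping peaks counted once under their highest-scoring small RNA, 92 mitochondrial places remained, and 0 of 101 small RNAs were called in reps 1-4 (9 at an unadjusted p under 0.05) and 0 of 13 in reps 5-7 (3 unadjusted).

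**Figure D5:**
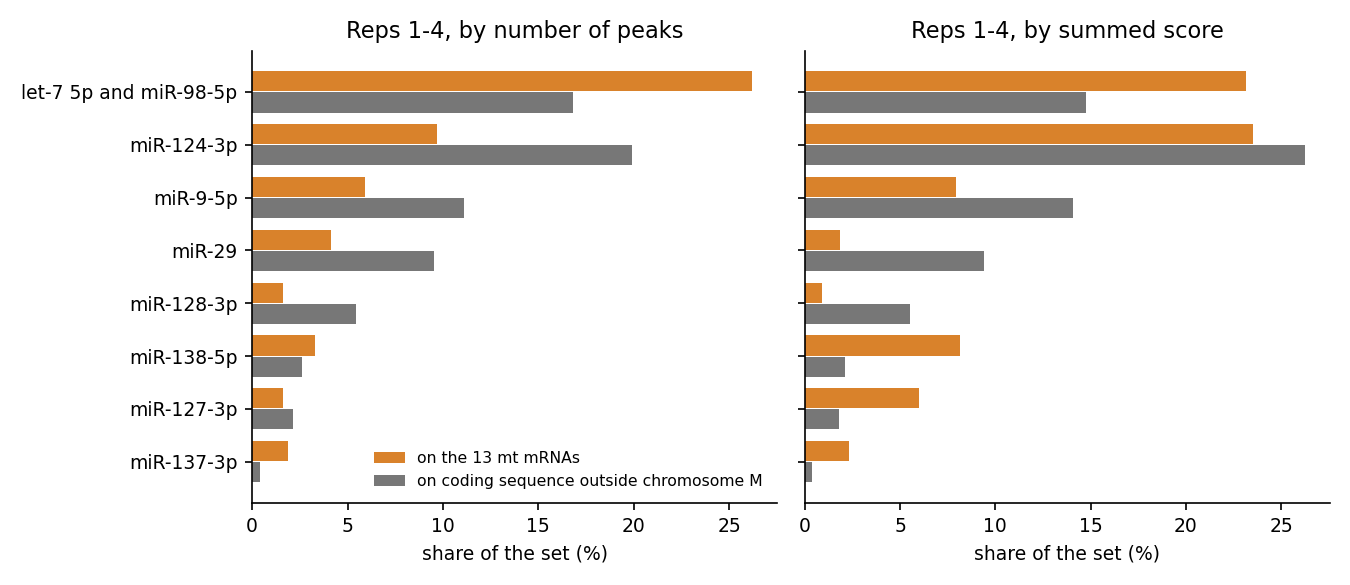
Shares of 8 small RNAs or groups (horizontal axis, %) among peaks of reps 1-4 on the 13 mitochondrial mRNAs and on coding sequence outside chromosome M, by number of peaks (left) and by summed score (right). miR-124-3p had 9.67% of the mitochondrial peaks against 19.9%, but 23.5% of the score against 26.2%; the let-7 group was higher on the mitochondrial mRNAs on both measures.

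By number of peaks the leading small RNAs on the mRNAs in reps 5-7 were miR-124-3p (22 peaks), let-7c-5p (10), miR-9-5p (7), miR-138-5p (4), and let-7b-5p, let-7f-5p, miR-127-3p and miR-218-5p (3 each), followed by let-7e-5p and miR-137-3p (2 each). In reps 1-4 the order was miR-124-3p (114), miR-9-5p (70), let-7c-5p (54), let-7a-5p (52), let-7f-5p (43), let-7b-5p (41), miR-138-5p (39), miR-26a-5p (37), let-7e-5p (35) and let-7d-5p (33), with miR-125b-5p level at 33. In excitatory neurons miR-138-5p had 2 of the 5, and let-7c-5p, miR-124-3p and miR-127-3p 1 each.

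The nuclear genes of the same complexes carried fewer peaks than the 13 mitochondrial ones. The 71 nuclear subunit genes of complexes I, III, IV and V held 4 peaks in excitatory neurons, 16 in reps 5-7 and 593 in reps 1-4, against 5, 69 and 1179 on the mitochondrial mRNAs. The 1179 peaks formed only 92 separate places, and the places on the nuclear subunit genes were not counted. Gene length and RNA level were not taken into account. In reps 1-4, 60 of the 71 had a peak, and 461 of the 593 peaks were in coding sequence. By complex, a peak was found on 28 of 36 complex I, 8 of 9 complex III, 9 of 11 complex IV and 15 of 15 complex V genes, with the most on Ndufs1 (24), Uqcrc1 (35), Cox6a1 (23) and Atp5b (54). Their median score was 5 in reps 1-4, against 7 on the mitochondrial mRNAs. In the tests between lists, 20 of these nuclear genes had enough peaks in each comparison with reps 1-4, and 0 between excitatory neurons and reps 5-7; none was called. Of 14 nuclear factors of mitochondrial gene expression, 10 had a peak in reps 1-4, with 36 peaks in all and the most on Lrpprc (10), which stabilises mitochondrial mRNAs and was the 1 tested; it was not called.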

How the data were processed

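Chimeric peaks came from 12 libraries (3 excitatory, 3 in reps 5-7, 4 in reps 1-4 and 2 IgG) and were deposited as 1 peak list per set, each with a gene annotation and a calling summary. Per the file headers and summaries, a peak needed at least 3 reads in at least 2 libraries of its set. The authors gave each peak a score, a whole number whose definition is not stated; it was used as deposited, to rank peaks and to sum. Coordinates are on mm10, per the submitters' processing notes. Of the aligner and the peak caller, the sources used here name none. The depth behind a single peak is unknown beyond its score.

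Members, gene lists and tests were chosen with earlier results of these data known. Shares of peaks were computed with Wilson 95% intervals, and a count of 0 was given the limit of 3 peaks. Genes were compared between lists, and small RNAs between mitochondrial mRNAs and coding sequence outside chromosome M, by a two-sided Fisher's exact test with Benjamini-Hochberg adjustment over all features with at least 10 peaks (threshold 0.05). The test of genes between lists was checked on simulated lists of independent peaks, which do not stack as the real ones do. The comparison of small RNAs was not simulated. Python 3.11.15, scipy 1.17.1, pandas 2.3.3 and numpy 2.4.6 were used. The text names the 13 mRNAs, the 5 tRNAs with the most peaks and those with a peak outside reps 1-4, the 10 small RNAs with the most mRNA peaks and the 5 highest-scoring peaks per list, up to 10 called features per direction with the largest odds ratio, and the 5 places with the most small RNAs. Other peaks named beside these were chosen after their values were seen. Peak widths depend on read number, so the same place can be narrow in 1 list and wide in another. Alternatives concerned the score, IgG overlap, ribosomal RNA, overlapping peaks, list size, minimum peaks, the set compared with and the overlap rule.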

Additional observations from a re-analysis of the deposited data

How the results depend on the processing

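The pooled lists limit every comparison: no replicate spread exists, stacked peaks are not independent, the excitatory list has 7 member peaks, and the lists differ in depth and size. No paired analysis was possible because the peak lists are pooled over libraries and their columns carry no replicate number. The seed match alternatives were not run, since no chromosome M sequence of the files' build was used here. Of the main values recomputed under the alternatives, 68 stayed within their counting interval, or within 1.5 times for counts of calls, and 26 moved. The 68 include counts of called members that stayed at 0, in some settings with 0 members left to test. The intervals of the small counts are wide: the excitatory tRNA share was 0.130% by summed score and 0.465% at or above the median score, and that of reps 5-7 0.392% among the highest-scoring peaks. The cause of the moves was not tested beyond what each alternative removes.

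The mRNA share by summed score was 1.32% in reps 5-7 and 0.896% in reps 1-4. In reps 1-4 it was 0.671% at or above the median score, 0.050% with overlapping peaks merged and 1.57% among the highest-scoring 766 peaks. The tRNA share of reps 1-4 was 0.00761% merged, 0.653% among the highest-scoring peaks and 0.196% by summed score. Genes called between excitatory neurons and reps 5-7 numbered 1 at or above the median score, 0 without ribosomal RNA, 1 merged, 4 among the highest-scoring peaks and 1 with a minimum of 5 peaks. Between excitatory neurons and reps 1-4 the count was 3 among the highest-scoring peaks. Between reps 5-7 and reps 1-4 it was 21 at or above the median score, with 1 member among them. Among the highest-scoring peaks it was 1, with 0 members. Merged, 6 members were called, where the merging itself lowers the mRNA share of reps 1-4. At or above the median score mt-Nd1 and mt-Nd4 lost their calls (adjusted p = 0.436 and 0.212 by Fisher's exact test), with differences of 0.206 and 0.231 percentage points, against 0.227 and 0.247 over all peaks.

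Small RNAs called in reps 5-7 numbered 2 with a minimum of 5 peaks, 2 with seeds merged and 0 with overlapping peaks merged, and in reps 1-4 0 when merged; this merging was chosen after seeing the data. Against all peaks outside chromosome M, miR-16-5p, miR-22-3p and miR-29c-3p lost their calls. With 50% reciprocal overlap, recurrence in reps 1-4 was 20% for the excitatory and 14.5% for the reps 5-7 mRNA peaks. With any small RNA it was 100.0% for reps 5-7, against 95.2% over all peaks, where the same small RNA gave 71.0% against 87.5%. The 100.0% says little about shared sites, because reps 1-4 peaks covered most bases of several of these genes.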
